A study of Drosophila melanogaster with 13 samples.

Results

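The heterochromatin of chromosome 3 was examined on 3LHet and 3RHet, the scaffolds that Release 5 of the Drosophila melanogaster genome (dm3) assembled from the pericentric sequence of its left and right arms. Every peak placed on either scaffold in any of the 9 deposited ChIP-seq peak lists was taken, which gave 3832 of 83082 peaks, 2151 on 3LHet and 1681 on 3RHet. The lists came from SuUR mutant salivary glands (gamma-H2Av), from OrR salivary glands (gamma-H2Av and rabbit IgG), and from OrR egg chambers of stages 12-13 and of stage 10 (libraries labelled Cdc45, labelled SUUR and IgG at each). OrR is the wild-type strain, and the SuUR allele was not given in the sources used here. Glands were dissected from wandering larvae, whereas egg chambers came from yeast-fed females, were fixed in 2% formaldehyde and were pooled at 600 per ChIP, with nurse cells, follicle cells and oocyte together. Each group was 1 library, so no test between conditions was possible, and intervals cover counting error only. The last peak end in any list lay at 2555246 on 3LHet and at 2504366 on 3RHet, and these positions served as scaffold lengths.

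Pericentric heterochromatin is rich in repeats and replicates late. In the polytene nuclei of salivary glands, which copy their DNA many times without dividing, much of it stays underreplicated. SUUR, the product of Suppressor of UnderReplication, binds late replicating chromatin and slows fork progression there, and SuUR mutants replicate these regions more fully. Gamma-H2Av, phosphorylated histone H2Av, marks DNA breaks. Cdc45 belongs to the replicative helicase and travels with forks. An IgG precipitation contains no specific antibody and gives the background.

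For all 4 egg chamber libraries labelled Cdc45 or SUUR, both the run named in the list's header and the name of the deposited file carry the other antibody. They are named here by their labels, and which protein a value belongs to cannot be told from the files. After duplicate removal the gland libraries held 15996251 (SuUR gamma-H2Av), 19208769 (OrR gamma-H2Av) and 16337826 tags (OrR IgG). The libraries labelled Cdc45, labelled SUUR and IgG held 6942374, 4824942 and 2592149 tags at stages 12-13. At stage 10 they held 8265341, 353742 and 3891175 tags. The stage 10 library labelled SUUR stood apart: only 3 of its 91 peaks on 3LHet and 2 of its 59 on 3RHet reached a summit pileup of 5 tags, and 55 and 41 of them were 49 bp wide, the narrowest width in that list. OrR gamma-H2Av and OrR IgG were called against 1 input, as were the 3 libraries of each egg chamber stage, whereas SuUR had its own input and no IgG list here.

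The first comparison asked whether gamma-H2Av on the heterochromatin of chromosome 3 differed between SuUR and OrR glands. On 3LHet the SuUR list had fewer but much wider peaks, and they covered more of the scaffold. It held 93 peaks, against 160 in OrR and 170 in IgG, which is 36.4 per Mb (exact Poisson 95% interval 29.4 to 44.6) in SuUR, 62.6 (53.3 to 73.1) in OrR and 66.5 (56.9 to 77.3) in IgG. These peaks covered 22.1% of 3LHet in SuUR, 16.8% in OrR and 14.3% in IgG, or 564, 430.3 and 365.5 kb. On 3RHet the lists were alike in number, with 152 peaks in SuUR, 143 in OrR and 157 in IgG, and in coverage, with 9.84%, 10.7% and 10.7%. The OrR list thus exceeded IgG by 2.53 percentage points on 3LHet, and on 3RHet OrR and IgG covered 268042 and 268204 bp. On 2RHet, the corresponding scaffold of chromosome 2, coverage was 29.3% in SuUR, 16.3% in OrR and 12.8% in IgG. The chromosome arms went the other way, with 0.903%, 2.19% and 1.61%. Higher coverage in SuUR than in OrR was therefore not particular to 3LHet.

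Width set the 3LHet list of SuUR apart from the other 5 gland lists on these scaffolds. Its median peak was 3645 bp wide (quartiles 1923 and 7309 bp), against 1624 bp in OrR and 1234 bp in IgG. Peaks of at least 5 kb numbered 35 of 93 in SuUR, 22 of 160 in OrR and 21 of 170 in IgG, and they made up 75.7%, 43.7% and 43.3% of the covered length. On 3RHet the median widths were 999 bp in SuUR, 1193 bp in OrR and 871 bp in IgG, with 10, 13 and 12 peaks of at least 5 kb. Wider SuUR than OrR peaks were also seen on 2RHet (medians 2040 and 1602 bp) and on the chromosome arms (4352 and 2691 bp). Over the whole lists the medians were 854 bp in SuUR and 1042 bp in OrR. The density of tags inside 3LHet peaks was 5.6 per kb of peak and per 1000000 tags of the library in SuUR, 3.24 in OrR and 4.07 in IgG. On 3RHet it was 4.91, 3.02 and 4.32, so OrR gamma-H2Av peaks were less dense than IgG peaks on both scaffolds. The whole lists had the same order, with 5.65, 3.92 and 4.94, so it was not particular to these scaffolds. The caller's fragment length also differed, at 110 bp for SuUR, 161 bp for OrR and 114 bp for IgG, and its part in these widths was not tested.

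**Figure D1:**
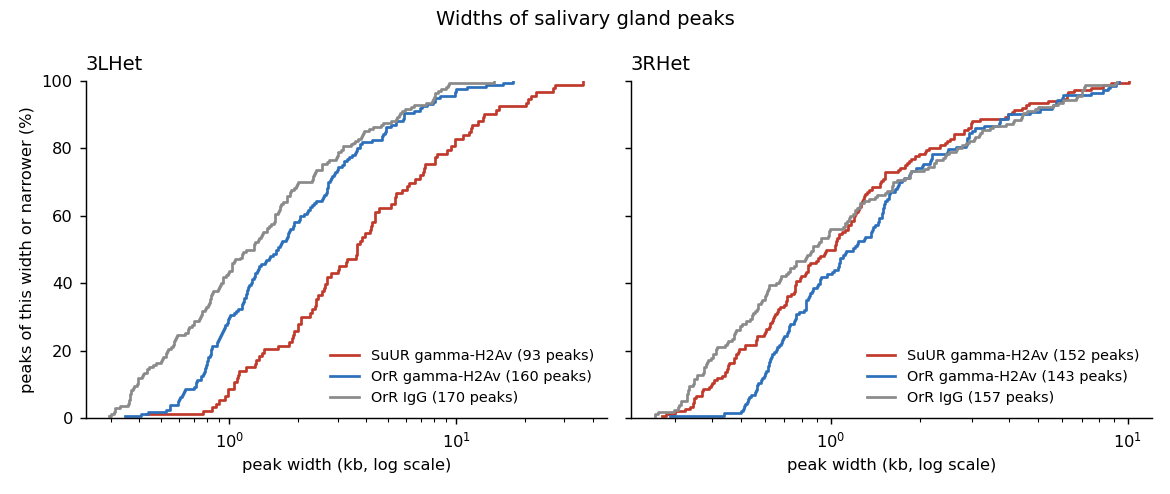
Cumulative share of salivary gland peaks (%) by peak width (kb, log scale) on 3LHet and 3RHet, with 1 line per library. On 3LHet the SuUR line lies to the right, with a median of 3645 bp against 1624 bp in OrR and 1234 bp in IgG, whereas on 3RHet the 3 lines run close together.

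Strain differences on 3LHet went both ways along the scaffold. In windows of 100 kb, a window was called when the percentage of its bases in peaks differed by at least 20 points. SuUR exceeded OrR in 5 of 26 windows of 3LHet and in 0 of 25 of 3RHet, where 1.84% of the 1686 windows of the genome were called. OrR exceeded SuUR in 6 of 26 windows of 3LHet and in 1 of 25 of 3RHet, where 2.61% were called over the genome. On 2RHet the counts were 11 of 33 windows for SuUR over OrR and 1 for OrR over SuUR. With a limit of 40 points the 3LHet counts were 3 and 0, and in windows of 50 kb they were 15 and 10.

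The 3LHet windows called at 20 points for more gamma-H2Av in SuUR lay between 0.9 and 2.1 Mb. Window 11 (1.0 to 1.1 Mb) had the largest difference, with 54.5% of its bases in peaks in SuUR, 9.01% in OrR and 7.02% in IgG. Next came window 16 (1.5 to 1.6 Mb) with 59.4%, 16.0% and 37.8%, window 20 (1.9 to 2.0 Mb) with 56.6%, 14.8% and 9.30%, and window 21 (2.0 to 2.1 Mb) with 49.6%, 9.64% and 1.61%. In window 16 IgG itself covered more than OrR gamma-H2Av, while in windows 11, 20 and 21 both OrR lists lay well below SuUR. The median window of 3LHet had 14.2% in OrR and 10.6% in IgG. Window 10 (0.9 to 1.0 Mb) was also called, with 41.0% in SuUR, 9.78% in OrR and 8.36% in IgG.

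Windows with more gamma-H2Av in OrR lay within the first 1.3 Mb of 3LHet, except window 24. In window 3 (0.2 to 0.3 Mb), peaks covered 22.0% in SuUR, 55.6% in OrR and 8.53% in IgG, with 2, 21 and 9 peak summits. In windows 4 and 12 the values were 2.76% in SuUR, 29.7% in OrR and 9.73% in IgG, and 3.77%, 33.3% and 10.6%. In windows 8, 13 and 24 IgG was also high, at 25.3%, 38.5% and 17.4%, beside 7.18%, 9.52% and 1.19% in SuUR and 31.9%, 29.8% and 24.7% in OrR. Ranks of the 26 windows by coverage were weakly related between SuUR and OrR (Spearman's rho 0.21), and over the 25 windows of 3RHet rho was 0.63. These values describe windows that share mappability and are no measure of replicates.

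**Figure D2:**
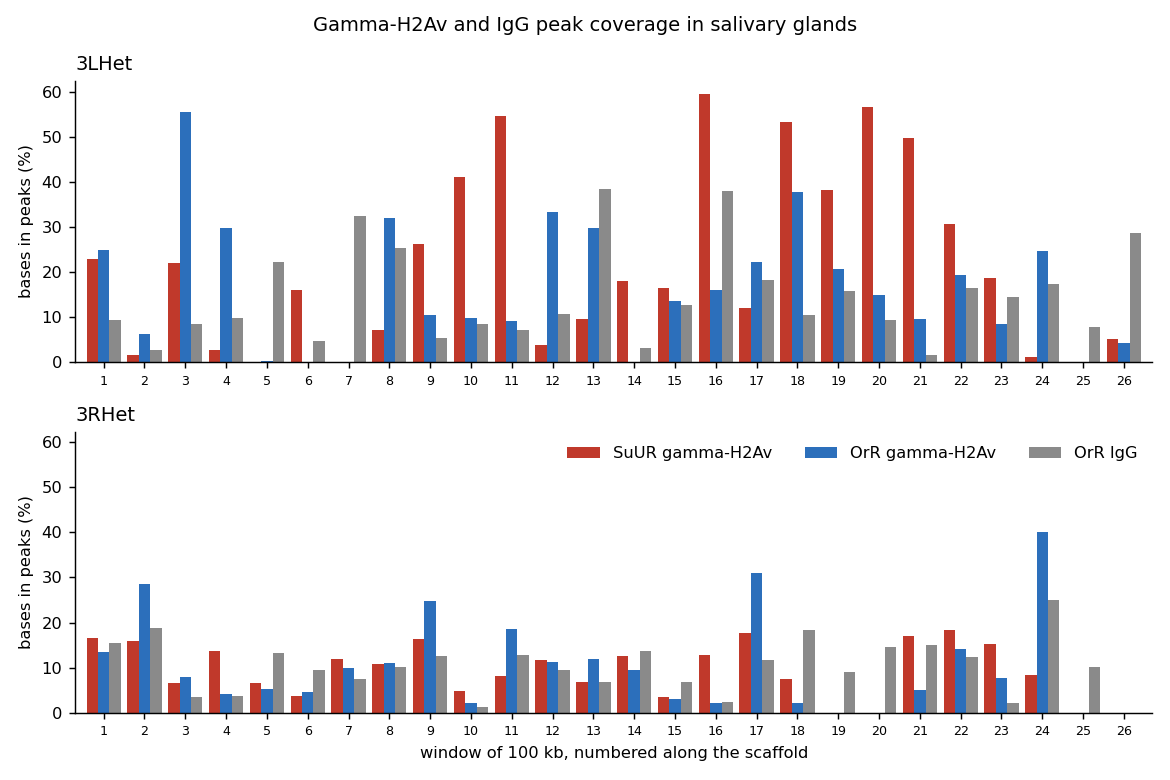
Percentage of bases in salivary gland peaks in each 100 kb window of 3LHet and 3RHet, with 1 bar per library (the last 3RHet window, 4366 bp long, is left out). SuUR reaches 59.4% in window 16 of 3LHet and OrR 55.6% in window 3, whereas on 3RHet only OrR window 24 reaches 40.1%.

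On 3RHet the largest strain difference was a deficit in SuUR. Window 24 (2.3 to 2.4 Mb) had 8.45% in SuUR, 40.1% in OrR and 24.95% in IgG. Its widest OrR peak, 2374104 to 2383436, held 901 tags, and 97.3% of it lay in IgG peaks and none in SuUR peaks. Windows 17 and 2 followed with 17.7% in SuUR, 30.9% in OrR and 11.7% in IgG, and with 15.9%, 28.6% and 18.9%. The widest OrR peak of window 2, at 168203 to 177318, was wholly covered by IgG peaks. Differences toward SuUR were smaller, with 17.0%, 5.03% and 15.0% in window 21 and 12.8%, 2.24% and 2.38% in window 16. Over the whole of 3RHet, SuUR minus OrR coverage was -0.87 percentage points, and it was 0.953 once every peak that overlapped an IgG peak was left out, so this sign depended on the IgG peaks.

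Set against IgG, gamma-H2Av was called higher in windows of 3LHet and in none of 3RHet. SuUR exceeded OrR IgG by at least 20 points in 8 of 26 windows of 3LHet (2.67% called over the genome). OrR gamma-H2Av did so in 3 windows, numbered 3, 12 and 18 (2.61%). On 2RHet the counts were 12 of 33 windows for SuUR and 4 for OrR, so calls of gamma-H2Av over IgG were not particular to 3LHet. In windows 5, 7, 16 and 26 of 3LHet OrR gamma-H2Av lay at least 20 points below IgG (0.474% over the genome), with 0.26%, 0%, 16.0% and 4.22% of bases in OrR gamma-H2Av peaks and 22.3%, 32.5%, 37.8% and 28.6% in IgG peaks. No window of 3RHet was called in any of these comparisons with IgG. Window 18 of 3LHet (1.7 to 1.8 Mb) was high in both strains, with 53.2% in SuUR and 37.6% in OrR, against 10.5% in IgG.

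Single blocks show where the SuUR coverage of 3LHet lay. The widest peak of all gland lists on these scaffolds, at 1554066 to 1590395 in the SuUR list, was 36.3 kb wide with 6299 tags and a 17.87-fold enrichment over input by the authors' value. No OrR gamma-H2Av peak covered any of it, and IgG peaks covered 56.0%. The next, at 1707666 to 1734839, was covered to 74.6% by OrR peaks, and the peak at 1053147 to 1079766, the widest of window 11, to 6.40%. With peaks at most 10 kb apart joined, the longest SuUR block ran from 1995791 to 2109886 over 114 kb and held 24 peaks. The longest OrR block, 2104381 to 2164030, spanned 59.6 kb and held 10. The widest OrR peak, at 9 to 17720, lay wholly within SuUR peaks and outside IgG peaks, so the start of 3LHet carried gamma-H2Av in both strains.

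On 3RHet a single SuUR peak stood out by its tags, but not by its enrichment over input. At 1517122 to 1525349 the SuUR list had an 8.23 kb peak with 4116 tags, or 31.3 tags per kb and per 1000000 tags of the library, against 4.91 over all SuUR peaks of the scaffold. Neither OrR list had a peak in it. Its enrichment over the SuUR input was 4.49-fold, below the lower quartile of 4.855 (median 6.345) of the SuUR peaks of 3RHet. The library labelled SUUR at stages 12-13 had its 2 peaks of highest fold outside IgG in the same place, at 1518753 to 1519569 with a summit pileup of 22 tags and 8.01-fold enrichment and at 1518178 to 1518237 with 14 tags and 5.22-fold. The first of these was also touched by peaks labelled Cdc45 at both stages and labelled SUUR at stage 10, and by no IgG peak.

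Peak by peak, SuUR peaks of both scaffolds overlapped OrR peaks about as often as over the whole SuUR list. The OrR peaks overlapped SuUR peaks less often than over the whole OrR list, but more often than on the chromosome arms. Peaks were taken as shared with another list from 1 bp of overlap on, and shares carry Wilson 95% intervals. Of the SuUR peaks, 39 of 93 on 3LHet (41.9%, 32.4 to 52.1%) and 63 of 152 on 3RHet (41.4%, 33.9 to 49.4%) overlapped an OrR gamma-H2Av peak, close to the 42.6% of the whole list. Of the OrR peaks, 34.4% on 3LHet and 46.9% on 3RHet overlapped a SuUR peak, both under the 54.7% of the whole list. The share was 71.0% on 2RHet and 16.8% on the chromosome arms, and both scaffolds lay between these values. In bases the shared part was 116 kb of 3LHet, 20.6% of the SuUR and 26.9% of the OrR coverage, and 91.2 kb of 3RHet, 37.0% and 34.0%. Shared SuUR peaks of 3LHet were wider than unshared ones, with medians of 6184 and 2628 bp, and the part of width in the share was not tested. Among the upper 50% of each list by p-value the shared share of SuUR peaks on 3LHet was 18.3%, and on 3RHet it was 42.2%, beside 32.7% over the whole list.

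Many gland gamma-H2Av peaks lay at OrR IgG peaks. Of the OrR peaks, 48.1% on 3LHet and 45.5% on 3RHet overlapped an IgG peak (52.4% of the whole list), and of the IgG peaks 54.1% and 47.8% overlapped an OrR gamma-H2Av peak (51.9%). For SuUR peaks the shares with OrR IgG were 31.2% and 30.3% (35.2% of the whole list). The SuUR and IgG lists share no input, while the OrR lists do, and the part of the input in these shares was not tested. With every peak that overlapped IgG left out, 28.1% of 64 SuUR peaks on 3LHet and 28.3% of 106 on 3RHet overlapped an OrR peak, beside 25.5% of the whole list treated alike. The SuUR peaks of highest fold outside IgG were 1905559 to 1908129 on 3LHet (130 tags, 15.15-fold) and 217816 to 218380 on 3RHet (22 tags, 15.52-fold), and neither overlapped a peak of any other list. In the OrR list they were 869452 to 870053 on 3LHet (18 tags, 11.43-fold) and 290720 to 291649 on 3RHet (40 tags, 13.23-fold). The 3RHet one was also present in SuUR.

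**Figure D3:**
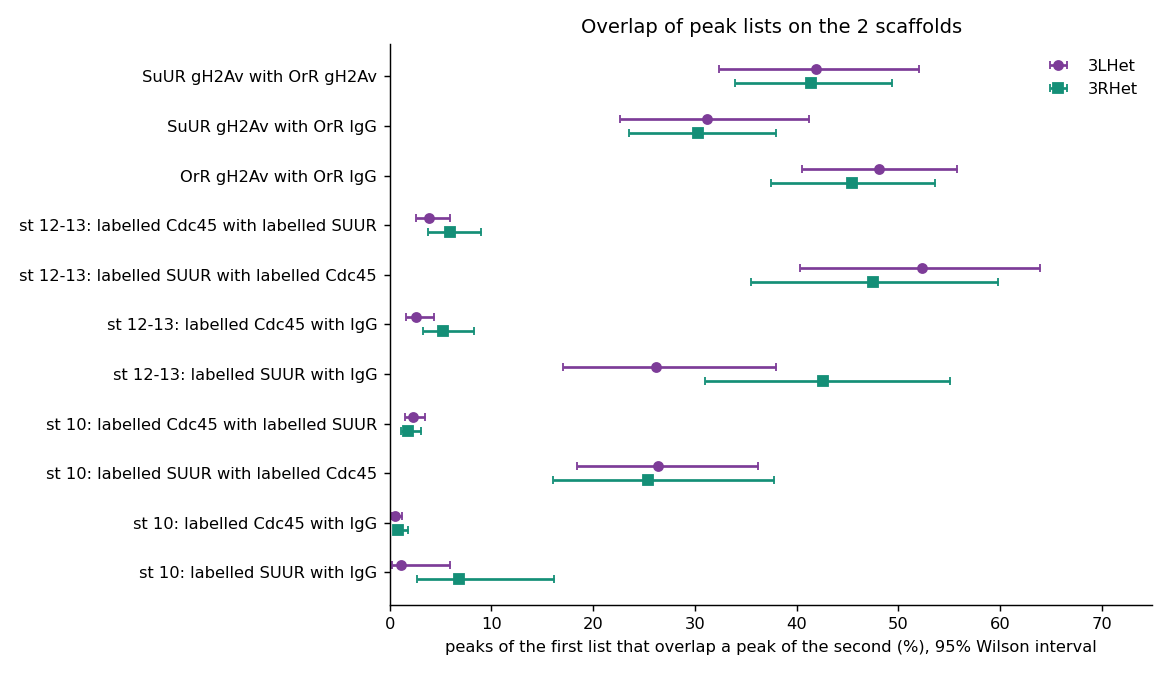
Share of peaks of the first list that overlap a peak of the second by at least 1 bp (%, with Wilson 95% intervals), on 3LHet (circles) and 3RHet (squares). The gland shares lie between 30.3% and 48.1%, whereas peaks labelled Cdc45 overlap the shorter lists in at most 5.88%.

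The second comparison concerned SUUR and Cdc45 in egg chambers, where follicle cells end their genomic replication and amplify the chorion gene regions. The library labelled Cdc45 (run name SUUR) placed many small peaks on both scaffolds at both stages, whereas the library labelled SUUR (run name Cdc45) placed few. At stages 12-13, 3LHet held 538 peaks labelled Cdc45, 65 labelled SUUR and 47 of IgG, and 3RHet held 323, 61 and 47. At stage 10 the counts were 966, 91 and 21 on 3LHet and 723, 59 and 16 on 3RHet. At stages 12-13 peaks labelled Cdc45 numbered 211 per Mb (193 to 229) on 3LHet and 129 (115 to 144) on 3RHet, beside 230.5 on 2RHet, 34.3 on the chromosome arms and 75.7 in the rest of the list, which includes unplaced sequence. At stage 10 they numbered 378 (355 to 403) and 289 (268 to 311), beside 418 on 2RHet, 58.2 on the arms and 141 in the rest of the list. Peaks labelled SUUR numbered 25.4 per Mb (19.6 to 32.4) on 3LHet and 24.4 (18.6 to 31.3) on 3RHet at stages 12-13, beside 50.5 on 2RHet, 26.74 on the arms and 59.6 in the rest of the list. At stage 10 they numbered 35.6 (28.7 to 43.7) and 23.6 (17.9 to 30.4), beside 45.0 on 2RHet, 28.98 on the arms and 30.5 in the rest of the list.

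These peaks were narrow and low. At stages 12-13 the median widths on 3LHet were 90 bp labelled Cdc45, 75 bp labelled SUUR and 57 bp in IgG, with median summit pileups of 14, 10 and 7 tags. Peaks labelled Cdc45 covered 2.57% of 3LHet and 1.89% of 3RHet, those labelled SUUR 0.279% and 0.299%, and IgG 0.148% and 0.168%. At stage 10 the median widths on 3LHet were 63, 49 and 67 bp with median pileups of 12, 3 and 10 tags, and the coverages of 3LHet and 3RHet were 3.55% and 2.89% labelled Cdc45, 0.234% and 0.149% labelled SUUR and 0.0662% and 0.0674% in IgG. The lists differ in length and depth. With each stage cut to lists of equal length by p-value, 3LHet held 360 peaks labelled Cdc45 and 65 labelled SUUR at stages 12-13, or 3.65% (3.29 to 4.03%) and 0.658% (0.517 to 0.838%) of the lists. At stage 10 it held 123 and 91, or 2.39% (2.01 to 2.84%) and 1.77% (1.44 to 2.17%), and these intervals overlap. The same peaks covered 1.05% of 3LHet labelled Cdc45 and 0.234% labelled SUUR. On 3RHet the stage 10 counts at equal length were 106 and 59, or 2.06% (1.71 to 2.48%) and 1.15% (0.89 to 1.48%).

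Peaks labelled Cdc45 were gathered in the same windows at both stages. A window was called when the labels differed by at least 5 points. At stages 12-13 labelled Cdc45 exceeded labelled SUUR in 5 of 26 windows of 3LHet (5, 6, 7, 16 and 23) and 3 of 25 of 3RHet (18, 19 and 20), where 2.02% of windows were called over the genome. At stage 10 it did so in 7 windows of 3LHet (the same 5, with 1 and 22) and 4 of 3RHet (18 to 21), where 12.8% were called. On 2RHet 6 of 33 windows were called at stages 12-13 and 11 at stage 10. Windows ranked almost alike at the stages in the libraries labelled Cdc45, with Spearman's rho 0.93 on either scaffold, a description over windows that share mappability. With a limit of 10 points, 0 windows of 3LHet and 1 of 3RHet were called at stages 12-13, and 1 of each at stage 10.

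On 3LHet the first of these windows was number 6 (0.5 to 0.6 Mb). It had 7.64% of bases in peaks labelled Cdc45, 0.352% labelled SUUR and 0.16% in IgG at stages 12-13, and 11.4%, 0.49% and 0.047% at stage 10. Window 5 (0.4 to 0.5 Mb) had 6.30%, 0% and 0.042% at stages 12-13 and 7.73%, 0.592% and 0% at stage 10. In window 23 (2.2 to 2.3 Mb) all lists of stages 12-13 were high, with 7.81% labelled Cdc45, 1.74% labelled SUUR and 1.42% in IgG, and stage 10 had 7.59%, 0.827% and 0.199%. Window 22 (2.1 to 2.2 Mb) stood higher at stage 10, with 9.63% labelled Cdc45 there and 3.90% at stages 12-13. It held the 3LHet peak labelled Cdc45 of highest fold outside IgG at either stage, at 2184015 to 2184250 with 5.70-fold enrichment at stages 12-13 and at 2182992 to 2183373 with 8.10-fold at stage 10.

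On 3RHet coverage labelled Cdc45 was gathered in 3 neighbouring windows. Window 19 (1.8 to 1.9 Mb) had 12.7% labelled Cdc45, 0.134% labelled SUUR and 0% in IgG at stages 12-13, and 15.9%, 0.122% and 0% at stage 10. Window 18 had 8.47%, 0.065% and 0%, and 10.1%, 0.498% and 0%, and window 20 had 6.01%, 0.075% and 0%, and 7.79%, 0.827% and 0%. The 5 richest windows of 3RHet held 71.4% of its coverage labelled Cdc45 at stages 12-13 and 61.5% at stage 10, against 49.7% and 47.9% for those of 3LHet. The longest block at stages 12-13, 1826946 to 1930810, spanned 104 kb with 105 peaks that covered 17.4% of it. At stage 10 the blocks 1709107 to 1803751 and 1826667 to 1891444 held 99 and 126 peaks.

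**Figure D4:**
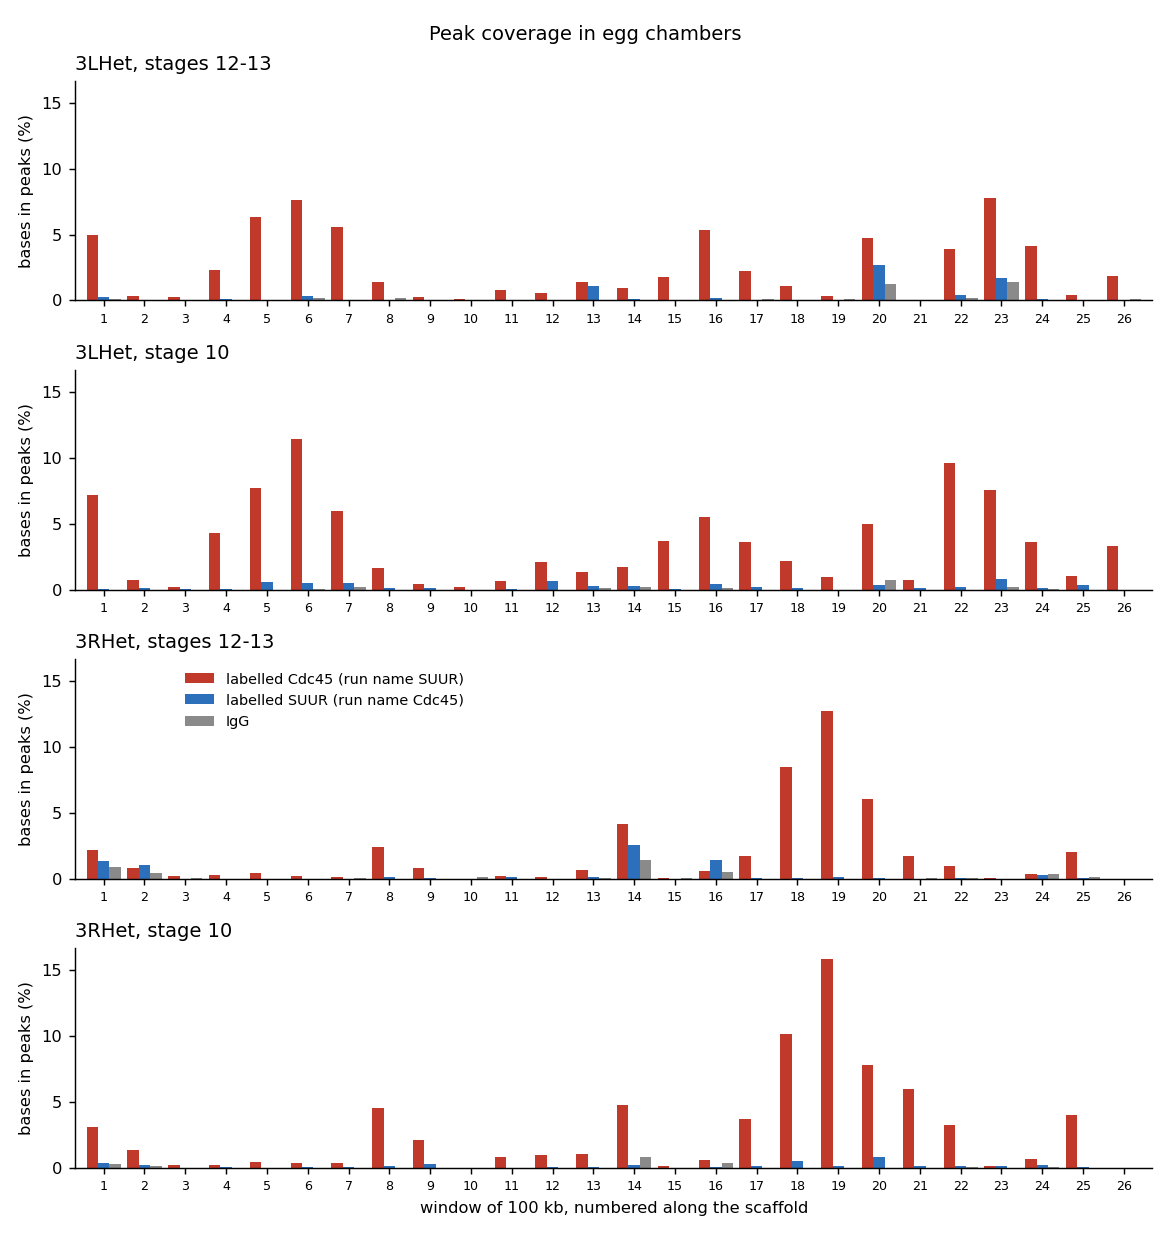
Percentage of bases in egg chamber peaks in each 100 kb window of 3LHet and 3RHet at stages 12-13 and stage 10, with 1 bar per library (the last 3RHet window is left out). The library labelled Cdc45 reaches 7.81% in window 23 of 3LHet at stages 12-13 and 11.4% in window 6 at stage 10, and on 3RHet its values in windows 18 to 20 are the highest at both stages, up to 15.9% in window 19 at stage 10.

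Few peaks labelled Cdc45 had a partner labelled SUUR, while many of the fewer peaks labelled SUUR had one labelled Cdc45. At stages 12-13, 21 of 538 peaks labelled Cdc45 on 3LHet (3.90%, 2.57 to 5.89%) and 19 of 323 on 3RHet (5.88%, 3.798 to 9.004%) overlapped a peak labelled SUUR, against 27.1% of the whole list. This share was 8.97% (7.14 to 11.2%) on 2RHet, which overlaps the interval of 3RHet, and 21.5% on the chromosome arms. Of the peaks labelled SUUR, 52.3% on 3LHet and 47.5% on 3RHet overlapped one labelled Cdc45 (38.7% of the whole list). IgG peaks were overlapped by 2.60% and 5.26% of the peaks labelled Cdc45 (16% of the whole list) and by 26.2% and 42.6% of those labelled SUUR (30.3%). Hence on 3RHet 26 of 61 peaks labelled SUUR lay at IgG peaks. On 2RHet and the chromosome arms, IgG peaks were overlapped by 4.88% and 10.5% of the peaks labelled Cdc45. Of those labelled SUUR, 18.7% and 13.4% overlapped an IgG peak there. With neither a Cdc45-labelled nor an IgG peak there remained 27 of 65 peaks labelled SUUR on 3LHet and 25 of 61 on 3RHet, or 41.5% and 41.0%, beside 45% of the whole list.

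The corresponding shares were also computed at stage 10. Of the peaks labelled Cdc45, 2.28% on 3LHet and 1.80% on 3RHet overlapped one labelled SUUR (3.58% of the whole list). Lists were also cut to equal length within a stage, to 9875 peaks at stages 12-13 and 5147 at stage 10. The shares on 3LHet and 3RHet were then 5.28% and 7.89% at stages 12-13 (30.3% of the whole list). At stage 10 they were 7.32% and 6.60% (7.81% of the whole list). Lengths still differed between the stages, so these shares give no comparison of the stages. The equal-length stage 10 shares rest on 9 of 123 and 7 of 106 peaks. Of all stage 10 peaks labelled Cdc45, 0.518% and 0.83% overlapped an IgG peak (13.2% of the whole list, 1.31% on 2RHet and 1.415% on the arms). Of the peaks labelled SUUR, 26.4% and 25.4% overlapped one labelled Cdc45 (17.6%), and 1.10% and 6.78% an IgG peak (9.87%). When only peaks with a pileup of at least 5 tags were kept, 0 of 966 peaks labelled Cdc45 on 3LHet and 1 of 723 on 3RHet had a partner (0.771% of the whole list), because 5 peaks labelled SUUR remained on both scaffolds together. The stage 10 list labelled SUUR therefore could not show at this depth where that library lay in heterochromatin.

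Between the stages, peaks labelled Cdc45 recurred less often on these scaffolds than over the whole list and on 2RHet. Few peaks labelled SUUR recurred, on the scaffolds as over the whole list. Of the peaks labelled Cdc45 at stages 12-13, 44.2% (40.1 to 48.5%) on 3LHet and 54.5% (49.04 to 59.8%) on 3RHet overlapped one of stage 10, below the 67.4% of the whole list. The share was 61.5% on 2RHet and 52.4% on the chromosome arms, so 3RHet was not below the arms. In reverse the shares were 25.5% on 3LHet and 27.1% on 3RHet (36.3% of the whole list), beside 33.7% on 2RHet and 30.45% on the arms. For peaks labelled SUUR the shares on 3LHet and 3RHet were 3.08% and 9.84% (6.94%), and in reverse 2.20% and 10.17% (16.2%). The stage 10 library labelled SUUR held 353742 tags, and 96.7% and 96.6% of its peaks on 3LHet and 3RHet had a pileup under 5 tags. IgG peaks recurred in 8.51% on 3LHet and 27.7% on 3RHet (31.3%), and in reverse in 23.8% and 75% (39.7%), from 47 peaks of stages 12-13 and from 21 and 16 peaks of stage 10. The recurrent part of IgG on 3RHet was thus 12 of 16 stage 10 peaks.

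Of the 3 longest stretches of each scaffold without gland gamma-H2Av in either strain, 3 of 6 held more of the coverage labelled Cdc45 than their share of the scaffold at both stages. The longest stretch of 3RHet without a gamma-H2Av peak in SuUR or OrR, 1738737 to 2003319, spanned 265 kb, or 10.6% of the scaffold. It held 157 peaks labelled Cdc45 at stages 12-13 and 284 at stage 10, which was 52.8% and 43.0% of all coverage labelled Cdc45 on 3RHet. Gland IgG covered 11.5% of this stretch with 5 peaks, and egg chamber IgG had no peak in it at either stage. The mappability of the stretch was not tested. The next stretch of 3RHet, 2383437 to 2504366 (121 kb, 4.83% of the scaffold), held 4.39% at stages 12-13 and 5.52% at stage 10, and that at 444146 to 533707 (89.6 kb, 3.58%) held 0.0868% and 0.171%. On 3LHet the stretch 538807 to 729283 (190 kb, 7.45% of the scaffold) held 20.7% and 19.1% of the coverage labelled Cdc45, with gland IgG over 21.0% of it. The stretch 400261 to 505256 (105 kb, 4.11% of the scaffold) held 9.58% and 8.68%. The longest such stretch of 3LHet, 2327573 to 2526012 (198 kb, 7.77%), held 4.27% and 2.80%, below its share of the scaffold. Over all windows, coverage labelled Cdc45 at stages 12-13 was weakly related to gland gamma-H2Av. Spearman's rho was -0.20 with SuUR and -0.17 with OrR on 3LHet, and 0.05 and -0.11 on 3RHet. With gland IgG rho was 0.50 on 3LHet and 0.56 on 3RHet. These values describe windows that share mappability. Glands and egg chambers are different tissues, precipitated with different antibodies.

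**Figure D5:**
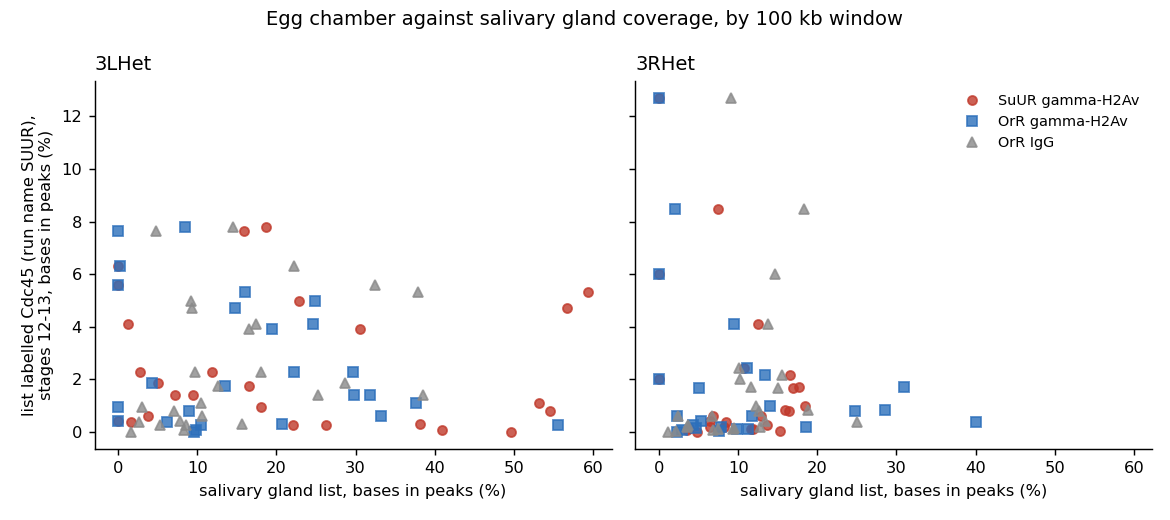
Bases in peaks labelled Cdc45 at stages 12-13 (%, y axis) against bases in salivary gland peaks (%, x axis), 1 point per 100 kb window and gland list, for 3LHet and 3RHet. On 3RHet the window with 12.7% labelled Cdc45 has 0% in both gamma-H2Av lists and 9.08% in gland IgG. Over all windows of a scaffold, Spearman's rho with a gamma-H2Av list lies between -0.20 and 0.05.

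Where summits of the egg chamber lists fell in gland peaks, the share in gland IgG peaks was at least as high as in gamma-H2Av peaks. Of the 323 summits labelled Cdc45 on 3RHet at stages 12-13, 16.7% lay in SuUR gamma-H2Av peaks, 15.2% in OrR gamma-H2Av peaks and 29.7% in gland IgG peaks, which cover 9.84%, 10.7% and 10.7% of the scaffold. On 3LHet the shares of 538 summits were 19.9%, 28.1% and 29.7%, with 22.1%, 16.8% and 14.3% of the scaffold covered. Of the 61 summits labelled SUUR on 3RHet at stages 12-13, 22 lay in SuUR gamma-H2Av peaks, 43 in OrR gamma-H2Av peaks and 48 in gland IgG peaks. These 61 peaks were clustered, with 11 at 50175 to 55641, 11 at 162239 to 176668 and 14 at 1343249 to 1347722. All 16 stage 10 IgG summits of 3RHet lay in gland IgG peaks.

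Short sites recurred in nearly every list, IgG included. Bases in at least 7 of the 9 lists made up 155 bp of 3LHet and 1547 bp of 3RHet. They lay on 3LHet near 1989043 to 1989185, and on 3RHet at several places between 53303 and 55059, at several places between 1343394 and 1347722, at 2 places between 1599267 and 1599649 and at 2136644 to 2136698. At 1599071 to 1599799 on 3RHet the gland IgG list had its peak of highest fold on the scaffold, 29.48-fold with 84 tags, and 7 other lists had a peak there. At 2136637 to 2136719 the IgG list of stages 12-13 had its highest fold on 3RHet, 21.6 with a pileup of 40 tags. Window 14 of 3RHet, which holds the sites near 1.34 Mb, accordingly showed 4.12% labelled Cdc45, 2.53% labelled SUUR and 1.43% in IgG at stages 12-13.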

How the data were processed

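The analysis started from 9 peak lists; the 4 inputs entered only through the authors' peak calls. Reads were mapped to dm3 with BWA, per the submitters' processing notes. How reads that map to several places were treated was not given in the sources used here. Per the file headers, gland peaks were called per library with MACS 1.4.2 (p-value limit 1e-05, genome size 2.7e+09, far larger than the fly genome, with an effect on the p-values that was not tested) and egg chamber peaks with MACS 2.0.10.20130419 (1e-03, 1.2e+08). The deposited gland lists give tag counts, a score of −10 times the log10 of the p-value, fold enrichment over input and an FDR in percent. The deposited egg chamber lists give the pileup signal of each summit, its −log10 p-value and its fold enrichment. Folds and scores are the authors' own and were used only within a list.

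Peaks of 3LHet and 3RHet were selected by scaffold name. Coordinates are 1-based. Coverage is the percentage of bases in at least 1 peak of a list. Windows of 100 kb were called at 20 points (glands) or 5 points (egg chambers), and windows under 50 kb were not called. Intervals are Wilson or exact Poisson 95% intervals. The scripts used Python 3.11.15, numpy 2.4.6, pandas 2.3.3 and scipy 1.17.1, and overlap and coverage were tested on simulated intervals.

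Named were, per scaffold, the 5 windows with the largest gland difference between strains, the 3 windows per stage with the largest difference between the labels, and the 2 peaks per list of highest fold outside IgG peaks. Other windows, blocks and stretches were chosen after their values were seen. The scaffolds, limits and rules were chosen with earlier results of these data known. Genes were not assigned and no sequence was printed, since no Release 5 genome was used here. Alternatives were other limits, window sizes, overlap rules, the upper 50% of each list, lists of equal length, a pileup of at least 5 tags and peaks at IgG left out.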

Additional observations from a re-analysis of the deposited data

Results flagged for a closer look

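In window 16 of 3RHet (1.5 to 1.6 Mb) the difference between the egg chamber labels changed sign between the stages. Labelled Cdc45 minus labelled SUUR was -0.83 percentage points at stages 12-13, from 0.604% of bases in peaks labelled Cdc45 and 1.44% in peaks labelled SUUR, and 0.545 points at stage 10, from 0.603% labelled Cdc45 and 0.058% labelled SUUR. Each stage was 1 library per label, the difference between the stages was not tested, and the limit of 0.25 points in both directions was chosen after the data were seen. The peaks labelled SUUR at 1518753 to 1519569 lie in this window, and the stage 10 library labelled SUUR had 353742 tags.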

How the results depend on the processing

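Of 66 recomputed values for 20 results, 33 stayed within the interval or within 1.5 times of the reported value, 32 moved further and 1 changed sign. No paired analysis was possible because each group was 1 library and the results come from no test. SuUR minus OrR coverage of 3RHet was 0.953 points without peaks at IgG, -1.31 with the upper 50% of each list and -3.58 with lists of equal length. On 3LHet it stayed positive under all 3.

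With windows of 50 kb, SuUR over OrR was called in 15 windows of 3LHet and 1 of 3RHet, and OrR over SuUR in 10 and 3. With 40 points the counts were 3 for SuUR over OrR on 3LHet, and 0 and 0 for OrR over SuUR on the scaffolds. The share of SuUR peaks on OrR peaks was 18.3% on 3LHet with the upper 50% and 20.4% by summit, and 28.1% and 28.3% (3LHet, 3RHet) without peaks at IgG.

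Labelled Cdc45 minus labelled SUUR coverage with the upper 50% was 1.395 and 0.83 points at stages 12-13 (3LHet, 3RHet) and 1.78 and 1.59 at stage 10. With lists of equal length, an alternative chosen after seeing the data, it was 0.812 and 0.73 points at stage 10. With 50 kb windows 8 and 5 windows were called at stages 12-13 and 11 on 3RHet at stage 10. With 10 points 0 and 1 were called at stages 12-13 and 1 and 1 at stage 10. The overlap of peaks labelled Cdc45 with those labelled SUUR was 2.29% and 2.61% without peaks at IgG at stages 12-13. At stage 10 it was 7.32% and 6.60% with lists of equal length, and 0% and 0.138% with a pileup of at least 5 tags. Apart from smaller windows, fewer peaks and higher limits by construction, the causes were not tested.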
